A study of Mus musculus with 6 samples.

Results

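The genes described here encode the MYC, MAX and MXD network of transcription factors, and they were taken by gene symbol: Myc, Mycn, Mycl, Max, Mxd1, Mxd3, Mxd4, Mxi1, Mnt and Mlx. All 10 were on the array, among 18193 genes in all, with 24 of the 45101 probe sets. They were compared between splenic B cells of Crebbp-deleted mice (CBPΔ/Δ x EµBcl2, 3 mice) and of Crebbp-floxed mice (CBPF/F x EµBcl2, 3 mice). Both groups carried the Bcl2 transgene under the Eµ enhancer, which is active in B cells, so no sample lacks Bcl2 over-expression. The Crebbp-floxed mice carry the histone acetyltransferase gene Crebbp with recombination sites around part of it, and in the Crebbp-deleted mice it was deleted. The Cre driver and the age of the mice are not given in the sources used here. Each mouse gave 1 array, made from spleen cells that had been frozen alive and thawed before B cells were enriched by removing CD43-bearing cells. Levels are log2 intensities of a probe set, differences are Crebbp-deleted minus Crebbp-floxed, and levels of different genes are not set against each other because probes differ in brightness.

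MAX is the common partner of the network. MYC, MYCN and MYCL bind DNA as dimers with MAX at the E-box motif CACGTG and mostly activate transcription, whereas dimers of MAX with MXD1, MXD3, MXD4, MXI1 or MNT bind the same motif and recruit the SIN3 corepressor and histone deacetylases. MLX is a MAX-like partner that pairs with the glucose-responsive factors MLXIP and MLXIPL, and also with MNT and some MXD proteins. In B cells MYC is induced by antigen and growth signals and drives growth and division, and MYC translocations are a hallmark of Burkitt lymphoma.

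Because the network's proteins bind CACGTG, the promoters of the members were searched for it in RefSeq sequences of the build GRCm38.p6, from 250 bases before to 50 bases after each annotated start. The table held 11 such promoters for 9 members, all but Myc, whose promoter was not searched here. At least 1 E-box was present in the promoters of 4 members, Max, Mxd4, Mnt and Mlx, and in 7.15% of all 32851 promoters in the table. Members' promoters had a GC content of 55% to 76.7%, where the median of all promoters was 52.7%. The motif is its own reverse complement, so 1 search covers both strands. The surroundings of the E-box, 40 bases read in the direction of the gene, are shown for the members that hold one, with the E-box in capitals.
Max (chr12:76962229-76962268, minus strand): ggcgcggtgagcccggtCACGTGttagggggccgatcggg
Mxd4 (chr5:34187907-34187946, minus strand): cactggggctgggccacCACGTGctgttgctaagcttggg
Mnt (chr11:74830784-74830823, plus strand): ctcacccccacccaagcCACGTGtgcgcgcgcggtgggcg
Mlx (chr11:101087233-101087272, plus strand): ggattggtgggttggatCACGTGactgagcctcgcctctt
The first base of the motif lies at position -3 from the start site in Max, at -219 in Mxd4, at -123 in Mnt and at -40 in Mlx. Mxi1 has 3 annotated starts in the table and CACGTG in none of these windows. The cyclic AMP response element TGACGTCA, the site of the CREB proteins that recruit CREBBP, was in none of the 11 member promoters and in 1.79% of all promoters, searched on both strands. Its core TGACG, which the full element contains, was in 1 of the 11, that of Mlx, and in 20.8% of all. These are matches of letters, and no binding was measured. The whole windows of Mnt and of the most upstream start of Mxi1 are given as examples. The levels of both genes separated the groups at the probe set that represents each, in opposite directions. Mycn separated the groups too, upward, and its window, not printed here, holds no E-box. A link between the motif and the direction of a difference was not tested. The E-box of Mnt is in capitals, and Mxi1 has none.
Mnt (chr11:74830674-74830973, plus strand): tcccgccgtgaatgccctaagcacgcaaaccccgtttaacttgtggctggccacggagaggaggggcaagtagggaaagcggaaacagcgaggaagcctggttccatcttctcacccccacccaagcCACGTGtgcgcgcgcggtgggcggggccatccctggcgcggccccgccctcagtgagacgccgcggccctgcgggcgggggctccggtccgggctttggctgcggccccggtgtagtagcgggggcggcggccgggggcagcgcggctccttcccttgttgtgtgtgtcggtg
Mxi1 (chr19:53310256-53310555, plus strand): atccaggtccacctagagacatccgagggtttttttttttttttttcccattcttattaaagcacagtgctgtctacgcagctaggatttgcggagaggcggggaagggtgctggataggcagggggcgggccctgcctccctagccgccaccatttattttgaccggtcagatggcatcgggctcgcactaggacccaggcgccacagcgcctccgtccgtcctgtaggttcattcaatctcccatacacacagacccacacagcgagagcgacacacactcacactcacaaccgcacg

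The deleted gene, Crebbp, had lower levels in the Crebbp-deleted samples at all 4 of its probe sets, with log2 differences from -0.97 to -0.50, and the groups overlapped at none of them. They stood at 51% to 70.6% of the Crebbp-floxed level, and whether they read exons that the deletion removes is not known here. In the fit on all probe sets 1436983_at passed (-0.79, limma adjusted p = 0.033). The probe set that represents the gene, 1435224_at, had a difference of -0.50 (limma adjusted p = 0.078), and with the mean of the 4 in its place the gene passed (-0.70, adjusted p = 0.039). The 6 arrays had medians of 4.28 to 4.30 and correlated with each other at 0.98 to 0.994 over all probe sets. The sex of the mice, read from Xist and Y-linked genes, was not balanced: Crebbp-deleted replicates 1 and 3 and Crebbp-floxed replicate 1 were male and the others female. Only 3 mice per group limit the precision, and an exact permutation test of 3 samples against 3 cannot go below p = 0.1.

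Of the 10 members 1 rose in the Crebbp-deleted samples, Myc, and 0 fell, when limma p-values were adjusted over all 18193 genes (threshold 0.05). Over all genes 0.781% passed that test, 0.544% upward and 0.236% downward, and 0.203% with sex as a term and 0% without Crebbp-floxed sample 1. At an unadjusted p under 0.05 there were 4 members, Myc, Mxi1, Mnt and Mycn, and 14.8% of all genes. In the same 4 members the samples of one group lay wholly on one side of the other, upward in Myc, Mxi1 and Mycn and downward in Mnt, while 21.2% of all genes separated the groups in this way, 11.2% upward and 10% downward. Differences were positive in 8 members and negative in 2, with a median of 0.33, and the median over all genes was 0.01. At the level of probe sets 18 of 24 were higher and 6 lower, 6 separated the groups, where 19.8% of all probe sets did, and 1 passed the test, where 0.411% of all did.

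**Figure D1:**
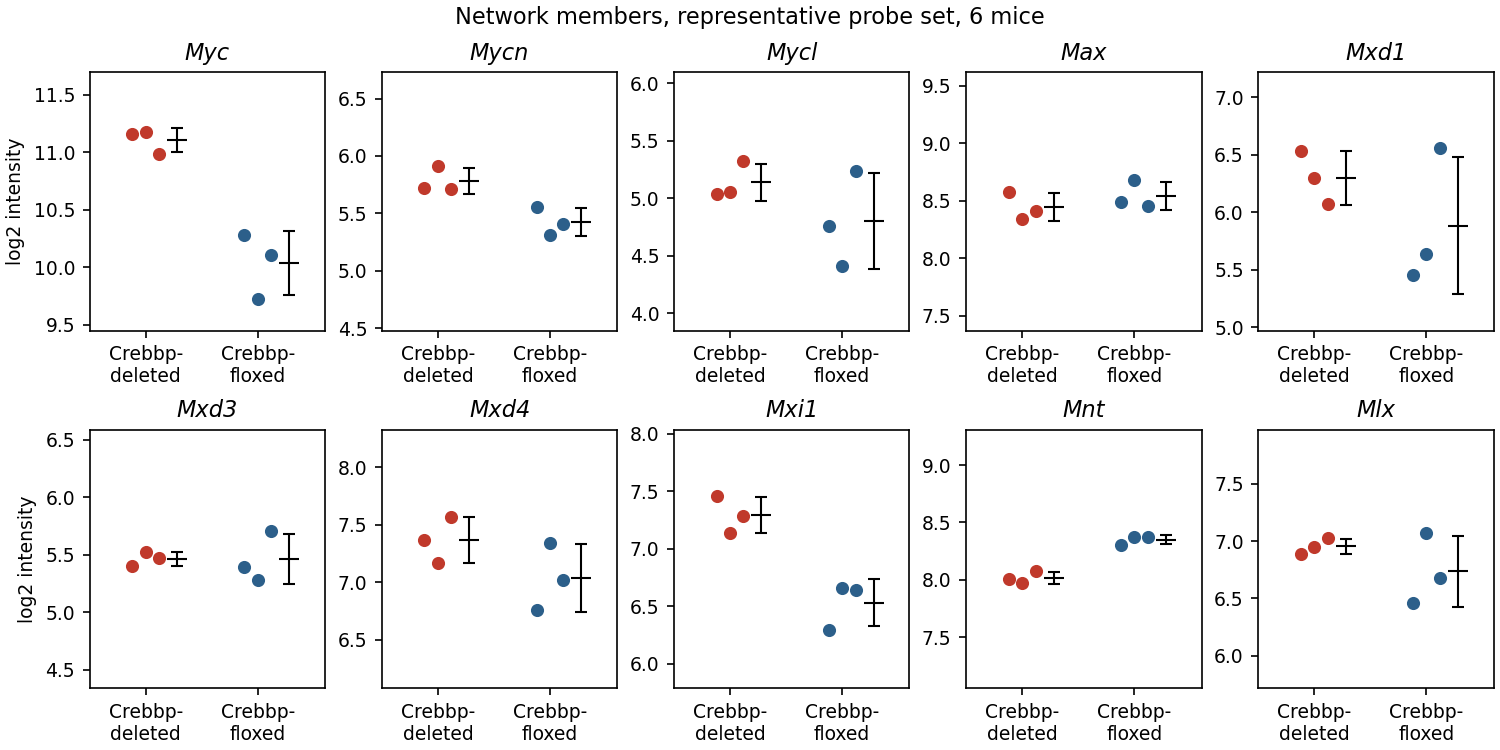
Log2 intensity (y axis) of the representative probe set of each of the 10 members in 3 Crebbp-deleted samples (red) and 3 Crebbp-floxed samples (blue), 1 point per mouse, with the mean and SD in black beside them. Every panel spans the same number of log2 units. In Myc and Mxi1 the Crebbp-deleted points lie clear above the Crebbp-floxed ones, in Mnt they lie below, and in Mxd1 and Mycl the Crebbp-floxed samples scatter widely.

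Among the activators, Myc is read by 1 probe set here, 1424942_a_at. Its log2 intensity was 11.16, 11.17 and 10.98 in Crebbp-deleted samples 1, 2 and 3, against 10.28, 9.73 and 10.10 in Crebbp-floxed samples 1, 2 and 3. The lowest Crebbp-deleted sample stood above the highest Crebbp-floxed one, and Crebbp-floxed sample 2 was the lowest of all. On the linear scale Myc averaged 2205 ± 159.9 in Crebbp-deleted samples and 1063 ± 200.4 in Crebbp-floxed samples (SD, n = 3 each). The log2 difference was 1.07 ± 0.15 (SE; 95% interval 0.72 to 1.42), a 2.10-fold rise with a limma adjusted p of 0.032. Of all genes 1.34% had a larger difference in either direction. In the fit on all probe sets the adjusted p of Myc was 0.045.

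The rise of Myc passed the test in 8 of 17 alternatives and was positive in all 17, at 0.79 to 1.26. Myc has 1 probe set, so the choice of probe set and the filter on dim genes leave its values unchanged, and these are among the 8. As its groups do not overlap, its sign could not change where samples were left out or split by sex. With log2 of intensity plus 16 the adjusted p was 0.054, and with the replicate number as a block it was 0.053. With sex as a term the difference was 1.03 (limma adjusted p = 0.083), and it was 0.79 within males (adjusted p = 0.357) and 1.26 within females (adjusted p = 0.427). Both within-sex differences come from the same fit on all 6 mice, with the spread pooled over the sexes. Each difference compares 3 mice, with 1 mouse on one side that is assumed to vary like the others. Without Crebbp-deleted sample 1, 2 or 3 the adjusted p was 0.142, 0.098 and 0.072, and without Crebbp-floxed sample 1 it was 0.071, at differences of 1.03 to 1.19. Without Crebbp-floxed sample 1 limma called 0 genes of all 18193, with 1990 at an unadjusted p under 0.05. Without Crebbp-floxed sample 2 or 3 Myc passed, with differences of 0.91 and 1.10.

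**Figure D2:**
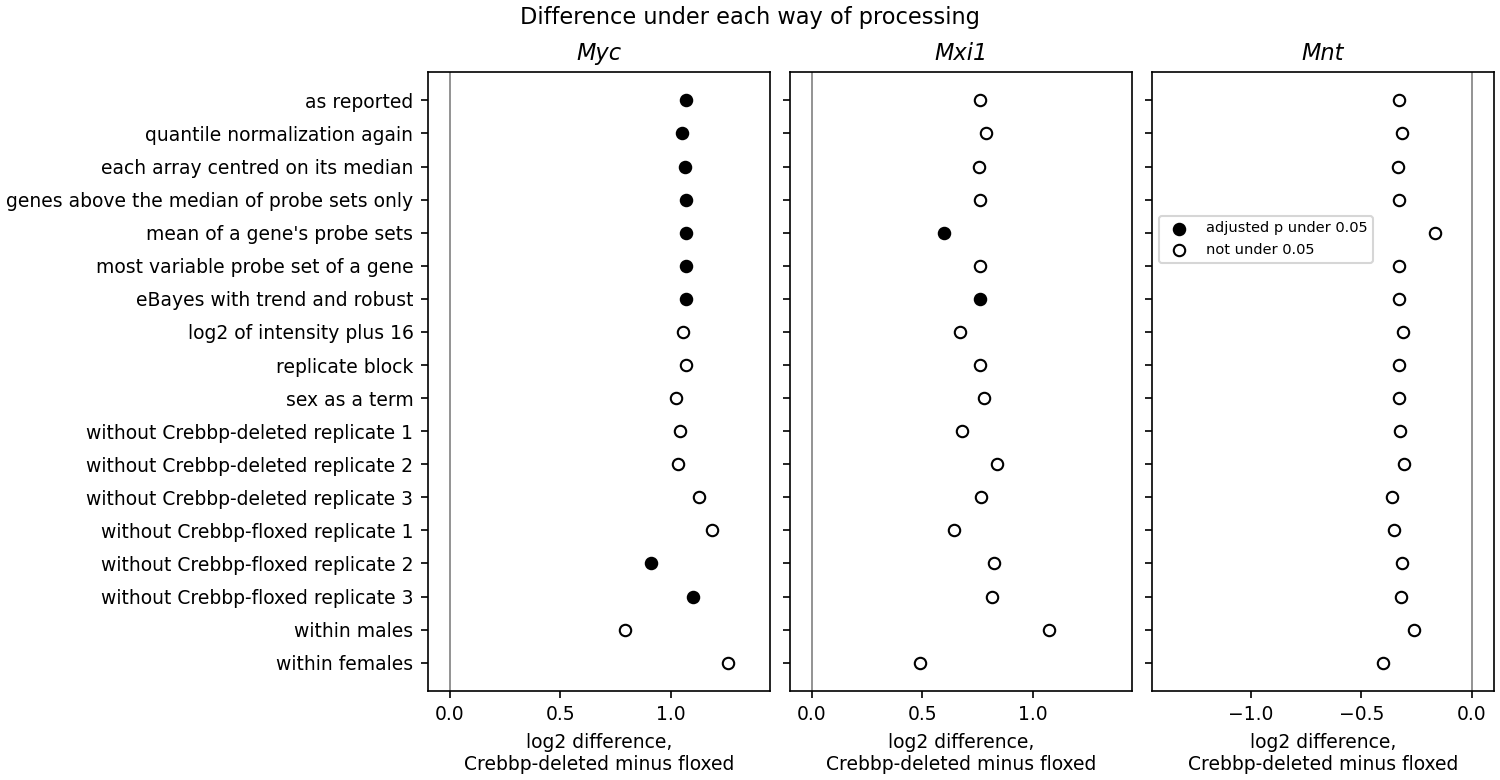
Log2 difference (x axis, Crebbp-deleted minus Crebbp-floxed) of Myc, Mxi1 and Mnt as reported and under each of 17 alternatives (y axis), with filled points where the limma adjusted p was under 0.05. Myc runs from 0.79 to 1.26, Mxi1 from 0.49 to 1.08 and Mnt from -0.40 to -0.17, and Mnt has no filled point.

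Mycn and Mycl, the paralogs of Myc known from neural and lung tumours, were each read in part by dim probe sets. Mycn, at probe set 1425922_a_at, had log2 intensities of 5.72, 5.91 and 5.71 in Crebbp-deleted samples, against 5.56, 5.31 and 5.41 in Crebbp-floxed samples. The groups did not overlap, but the log2 difference of 0.36 ± 0.11 (SE) did not pass (limma adjusted p = 0.186). The other Mycn probe sets gave 0.08 (1425923_at) and -0.02 (1417155_at), the last of them at 2.12 to 2.45 in all 6 samples, under 4.29, the median over the probe sets on the array. Mycl, at 1434777_at, had 5.03, 5.06 and 5.32 in Crebbp-deleted samples, against 4.76, 4.41 and 5.24 in Crebbp-floxed samples. Its groups overlapped through Crebbp-floxed sample 3, and its difference was 0.34 ± 0.20 (SE; limma adjusted p = 0.503). The dimmer Mycl probe set 1422087_at separated the groups, with 4.34, 4.26 and 4.21 in Crebbp-deleted samples against 3.79, 3.65 and 4.10 in Crebbp-floxed samples (difference 0.42, limma adjusted p = 0.222 over all probe sets). The third, 1422088_at, differed by 0.03.

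Max, the partner that all MYC dimers need, showed no detectable difference. It had log2 intensities of 8.58, 8.34 and 8.42 in Crebbp-deleted samples, against 8.49, 8.68 and 8.46 in Crebbp-floxed samples, and the groups overlapped. The log2 difference was -0.10 ± 0.11 (SE, limma adjusted p = 0.735). Its 95% interval, -0.35 to 0.15, lies below that of Myc, 0.72 to 1.42. A test of the difference between the changes of these 2 genes was not made.

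Among the repressor partners Mxi1 had the largest difference. Mxi1, also known as Mxd2, competes with MYC for MAX. Probe set 1450376_at gave log2 intensities of 7.46, 7.14 and 7.28 in Crebbp-deleted samples, against 6.29, 6.66 and 6.64 in Crebbp-floxed samples, with no overlap. The difference was 0.76 ± 0.14 (SE; 95% interval 0.44 to 1.08), 1.70-fold, and it did not pass (limma adjusted p = 0.060). Its second probe set, 1425732_a_at, separated the groups too, with 5.63, 5.69 and 5.83 in Crebbp-deleted samples against 5.32, 5.28 and 5.23 in Crebbp-floxed samples (difference 0.44, limma adjusted p = 0.117 over all probe sets). Mxi1 passed in 2 of 17 alternatives, with the mean of its probe sets (0.60, limma adjusted p = 0.035) and with limma's trend and robust options (0.76, adjusted p = 0.041). The difference was 1.08 within males and 0.49 within females. A test of that gap gave an unadjusted p of 0.043 and an adjusted p of 1.00 over all genes, so no dependence on sex was shown.

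Mnt, a broadly expressed repressor of the network that pairs with MAX or MLX, was the member with the largest negative difference. Probe set 1418192_at gave log2 intensities of 8.01, 7.97 and 8.08 in Crebbp-deleted samples, against 8.30, 8.37 and 8.37 in Crebbp-floxed samples. The groups did not overlap and each spread by little, with an SD of 0.05 in Crebbp-deleted samples and of 0.04 in Crebbp-floxed samples. The log2 difference was -0.33 ± 0.08 (SE; 95% interval -0.53 to -0.13), which leaves 79.6% of the Crebbp-floxed level, and it did not pass (limma adjusted p = 0.139). In all 17 alternatives the sign was the same and the test was not passed. As the groups do not overlap, the sign could not change where samples were left out or split by sex. The dim second probe set of Mnt, 1418193_at, had 3.90 to 4.07 in Crebbp-deleted samples and 3.89 to 4.04 in Crebbp-floxed samples and differed by -0.004.

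The MXD genes proper did not pass. Mxd1, which is induced when blood cells differentiate, had 6.54, 6.30 and 6.07 at probe set 1434830_at in Crebbp-deleted samples, against 5.46, 5.63 and 6.56 in Crebbp-floxed samples. Crebbp-floxed sample 3 was the highest of the 6, so the groups overlapped, and the log2 difference was 0.42 ± 0.28 (SE; 95% interval -0.24 to 1.08; limma adjusted p = 0.551). The other 2 Mxd1 probe sets gave 0.24 and 0.52 and also had a high Crebbp-floxed sample 3, at 6.20 and 6.53. Mxd3, expressed mainly in dividing cells, had 5.40, 5.52 and 5.47 in Crebbp-deleted samples, against 5.40, 5.28 and 5.71 in Crebbp-floxed samples, a difference of 0.003 ± 0.12 (SE; 95% interval -0.29 to 0.29). Its other probe sets gave 0.01 and -0.17. Mxd4 had 7.37, 7.16 and 7.57 at 1434378_a_at in Crebbp-deleted samples, against 6.75, 7.35 and 7.02 in Crebbp-floxed samples. Its difference was 0.33 ± 0.17 (SE, limma adjusted p = 0.424), and the other 3 probe sets gave 0.14, 0.13 and -0.10. Within males Mxd4 differed by 0.72 and within females by -0.02, and the test of that gap had an unadjusted p of 0.048 and an adjusted p of 1.00.

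Mlx had 6.89, 6.95 and 7.02 at 1418437_a_at in Crebbp-deleted samples, against 6.46, 7.07 and 6.67 in Crebbp-floxed samples. Crebbp-floxed sample 2 was the highest of the 6, and the log2 difference of 0.22 ± 0.16 (SE) did not pass (limma adjusted p = 0.569). The second Mlx probe set gave 0.26 with the same high Crebbp-floxed sample 2, at 6.67. In 3 members, Mycn, Mxd3 and Mxd4, probe sets of the same gene differed in sign.

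**Figure D3:**
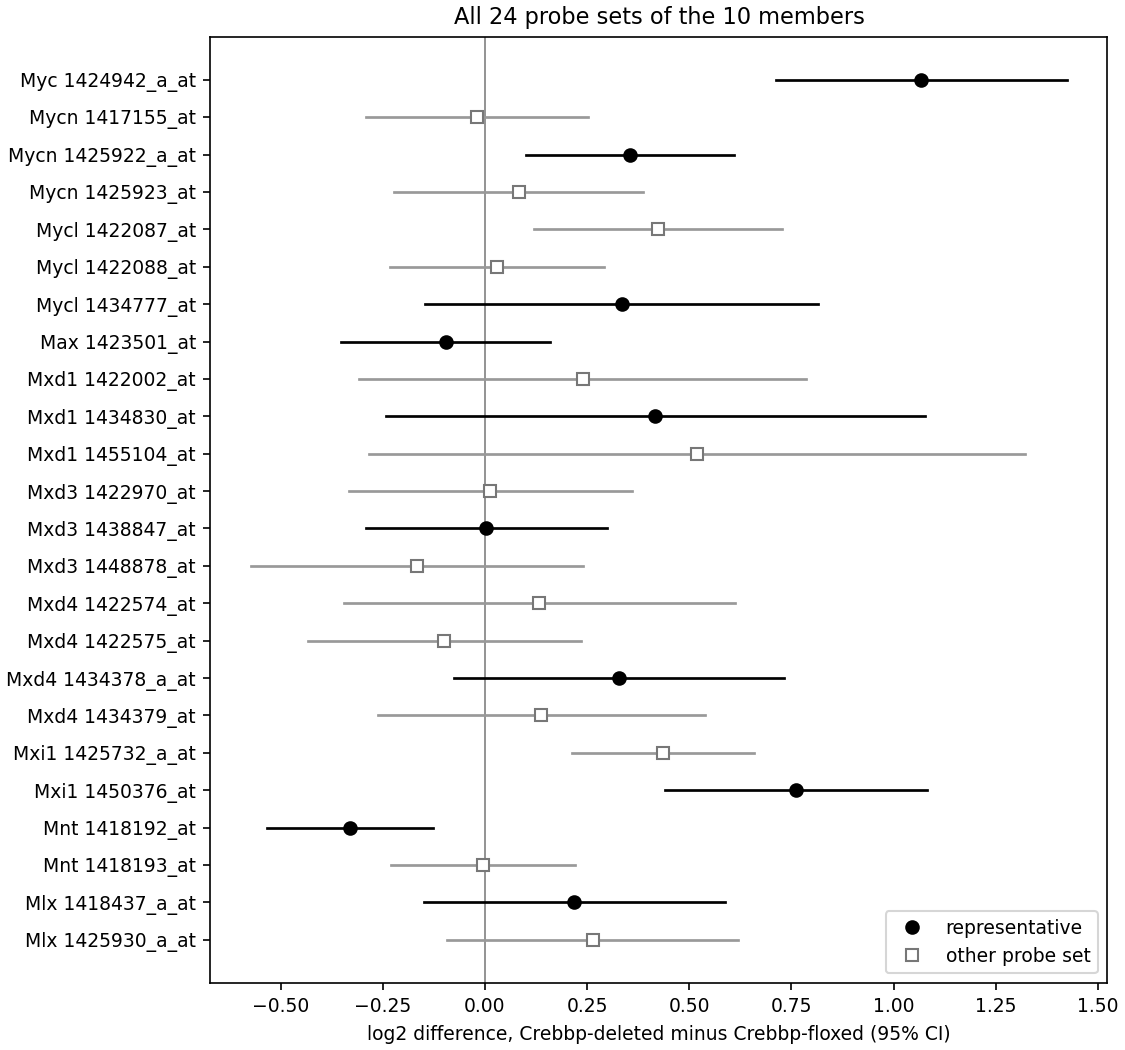
Log2 difference (x axis, Crebbp-deleted minus Crebbp-floxed) with its 95% interval from the fit on all probe sets, for each of the 24 probe sets of the 10 members (y axis); filled circles are the probe sets that represent a gene and open squares the others. The intervals of 6 probe sets exclude 0, upward in Myc, Mycn, Mycl and both of Mxi1 and downward in Mnt, before any adjustment for many tests.

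Genes around the network were described from lists of known partners, regulators and targets, and limma called 0 of their members over all genes, with 0 to 3 members of a list at an unadjusted p under 0.05. Of the extended network, Mga, a large MAX partner, had a log2 difference of 0.10 and Mlxip, the glucose-sensing partner of MLX also called MondoA, one of -0.18, with 7.77 to 8.97 in Crebbp-deleted samples and 8.20 to 8.81 in Crebbp-floxed samples. Txnip and Arrdc4, the arrestin-family targets of MLX and MLXIP, differed by 0.16 and 0.10 with overlapping groups. With its most variable probe set Arrdc4 differed by 0.75 (limma adjusted p = 0.097). Among 10 regulators of Myc transcription the median difference was -0.01 and 2 had an unadjusted p under 0.05, where 14.8% of all genes had. One of them was Prdm1, the plasma cell factor that represses Myc, with 6.66, 6.76 and 7.48 in Crebbp-deleted samples against 5.16, 4.31 and 5.77 in Crebbp-floxed samples (difference 1.88, limma adjusted p = 0.073). Without Crebbp-floxed sample 3 Prdm1 passed (2.23, adjusted p = 0.032). The other was Rela, an NF-kB subunit (-0.24, adjusted p = 0.281). Myc and its repressor Prdm1 thus both stood higher in all 3 Crebbp-deleted samples than in any Crebbp-floxed sample. Prdm1 is also among the plasma cell markers described below. Bulk arrays do not show whether Myc and Prdm1 stood higher in the same cells.

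Of 9 measured genes that control the turnover of MYC protein, 2 had an unadjusted p under 0.05, where 14.8% of all genes had, and the median was 0.05. Both encode the substrate-binding part of a ubiquitin ligase that targets MYC. Fbxw7 had 8.69, 8.71 and 8.79 in Crebbp-deleted samples, against 8.13, 8.36 and 8.47 in Crebbp-floxed samples (difference 0.41, limma adjusted p = 0.155). Skp2 had 5.11, 5.27 and 5.95 in Crebbp-deleted samples, against 4.71, 5.07 and 4.54 in Crebbp-floxed samples (difference 0.67, limma adjusted p = 0.245), with 5 of its 6 probe sets higher. The kinase Gsk3b, which marks MYC for FBXW7, differed by -0.20 with overlapping groups.

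Of 12 measured MYC cofactors 8 differences were negative, where 8486 of all 18193 genes were, with a median of -0.05. The groups did not overlap in 2 cofactors, downward, where 10% of all genes separated the groups downward. The acetyltransferase Kat5 had 7.45, 7.62 and 7.59 in Crebbp-deleted samples, against 8.01, 7.91 and 7.98 in Crebbp-floxed samples (difference -0.41, limma adjusted p = 0.095). The elongation kinase Cdk9 stood at -0.25 (adjusted p = 0.239), also without overlap, and the chromatin remodelling subunit Smarcb1 at -0.16 with 1 of its 3 probe sets higher. Among 8 measured corepressors of MXD and MNT the median was -0.01. Hdac1, the histone deacetylase, had 9.62, 9.57 and 9.50 in Crebbp-deleted samples, against 9.78, 9.79 and 9.86 in Crebbp-floxed samples (difference -0.24, limma adjusted p = 0.240). The SIN3 complex genes Sap30 and Suds3 differed by 0.12 and -0.12 with overlapping groups.

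Genes that MYC is known to induce did not stand higher as a list beside Myc. Of 25 measured, 11 differences were positive and 14 negative, with a median of -0.01. Limma called 0 of them over all genes and gave 3 an unadjusted p under 0.05, where 14.8% of all genes had one. The mitochondrial chaperones Hspd1 and Hspe1, which heat shock induces as well, had differences of 0.59 (limma adjusted p = 0.155) and 0.43 (adjusted p = 0.263). Hspd1 stood at 10.88, 10.36 and 10.57 in Crebbp-deleted samples, against 10.19, 9.80 and 10.03 in Crebbp-floxed samples. The transferrin receptor Tfrc went the other way (-0.38, adjusted p = 0.320) with overlapping groups. The log2 of the 25 genes' summed linear intensities, in which the brightest probe sets weigh most, was 14.57 to 14.67 in Crebbp-deleted samples. In Crebbp-floxed samples it was 14.48 to 14.70, so the ranges overlapped. Of 6 genes that MYC is known to repress, 5 differences were positive, where 9707 of all 18193 genes were, with a median of 0.31. Here too limma called 0 over all genes and gave 3 an unadjusted p under 0.05, beside the same 14.8% of all genes. The cell cycle inhibitors Cdkn2b (difference 0.36, limma adjusted p = 0.126), Cdkn1b (0.30, adjusted p = 0.220) and Cdkn1a (0.50, adjusted p = 0.224) each separated the groups upward, as did 11.2% of all genes. Cdkn2b was dim, with a mean of 4.18 in Crebbp-floxed samples, under the array's median of 4.29, and of 4.54 in Crebbp-deleted samples. With its most variable probe set Cdkn1b differed by 0.13 (limma adjusted p = 0.764). Cdkn1a had 6.34, 6.13 and 6.40 in Crebbp-deleted samples, against 5.46, 5.80 and 6.09 in Crebbp-floxed samples.

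**Figure D4:**
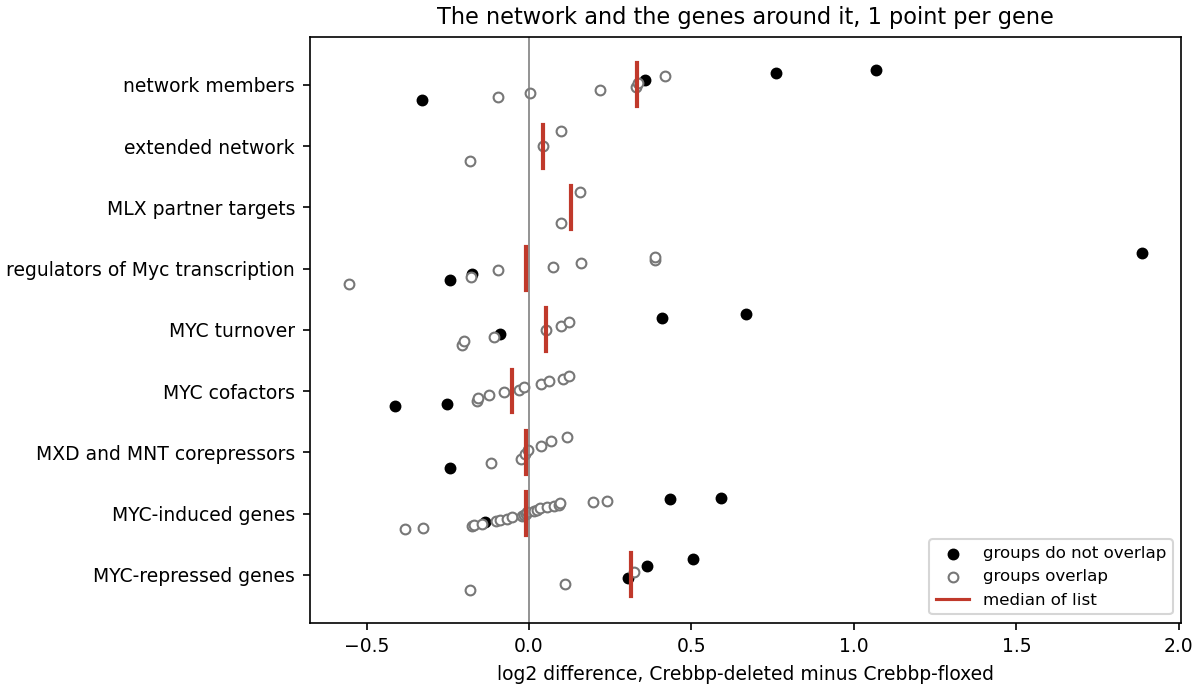
Log2 difference (x axis, Crebbp-deleted minus Crebbp-floxed) of each measured gene of the network and of 8 lists around it (y axis), with filled points where the groups do not overlap and a red bar at the list's median. The medians are 0.33 for the network, -0.01 for MYC-induced genes and 0.31 for MYC-repressed genes, against 0.01 over all genes, and the outlying point among the regulators is Prdm1.

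Marker genes of other cell types moved with the groups. In bulk samples fewer cells of a type and less RNA per cell cannot be told apart. All 10 plasma cell markers had positive differences, 9 of them without overlap, where 11.2% of all genes separated the groups upward. Only Jchain passed the test (1.65, limma adjusted p = 0.011), where 0.544% of all genes passed upward. A summed level is the log2 of a list's summed linear intensities, so the brightest probe sets weigh most. That of the plasma cell markers was 13.68 to 14.38 in Crebbp-deleted samples against 12.73 to 12.92 in Crebbp-floxed samples. The summed level of 10 macrophage markers was 10.49 to 11.71 in Crebbp-deleted samples, against 8.81 to 10.58 in Crebbp-floxed samples, so the ranges overlapped. All 10 differences were positive, 4 of them without overlap, beside the same 11.2% of all genes, with a median of 1.53. Limma called 0 of these markers and gave 7 an unadjusted p under 0.05, where 14.8% of all genes had one. With sex as a term the macrophage complement gene C1qb passed (1.74, adjusted p = 0.038). Of 7 measured B cell markers 6 stood lower and 1, Ebf1, stood higher (0.09). In 4 of the 7 the groups did not overlap, all downward, where 10% of all genes separated the groups downward. Cd79a, 1 of the 6, passed the test (-1.11, limma adjusted p = 0.009), where 0.236% of all genes passed downward. The summed level of the 7 markers was 14.15 to 14.22 in Crebbp-deleted samples against 14.42 to 14.61 in Crebbp-floxed samples. Without Crebbp-deleted sample 1 or Crebbp-floxed sample 1 the adjusted p was 0.052 and 0.055 for Jchain and 0.057 and 0.059 for Cd79a. Mean levels of the 7 B cell markers ran from 6.78 to 12.64 in the groups, all above the array's median of 4.29. The summed levels of 5 markers of dividing cells overlapped, at 8.49 to 9.29 in Crebbp-deleted samples and 7.80 to 10.05 in Crebbp-floxed samples. T cell, NK cell, neutrophil and erythroid markers had 0 members past limma's test and 0 at an unadjusted p under 0.05. Single samples still differed. The summed erythroid level was 7.04 in Crebbp-deleted sample 3, against 4.42 to 4.77 in the other samples. Neutrophil levels ran from 5.81 to 8.88 in Crebbp-deleted samples and from 5.96 to 8.34 in Crebbp-floxed samples. Crebbp-deleted sample 3 had the highest plasma cell and macrophage levels, 14.38 and 11.71, and the lowest Myc level of its group, 10.98. Among the Crebbp-floxed samples the order of macrophage and Myc levels was the same. In samples 1, 3 and 2 the macrophage level was 10.58, 9.76 and 8.81, and Myc was at 10.28, 10.10 and 9.73. The part of other cells in the differences of Myc, Mxi1 and Mnt was not tested.

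The 5 genes whose profile over the 6 samples was most like that of Myc were sought among 8837 genes with a mean above the median of all genes, leaving out the members and genes with only a clone or prediction name, by the root mean square difference of log2 values centred on each gene. They were Pard3b, a relative of the cell polarity scaffold PAR3, Prkcz, an atypical protein kinase C, Pde8a, a phosphodiesterase that breaks down cyclic AMP, Pld2, a phospholipase D, and Crim1, a membrane protein that binds growth factors. Their distance from Myc was 0.088, 0.090, 0.108, 0.138 and 0.139 log2 units. Prkcz had 6.35, 6.30 and 6.10 in Crebbp-deleted samples, against 5.26, 4.95 and 5.36 in Crebbp-floxed samples, with the lowest value in Crebbp-floxed sample 2, as in Myc. These genes were chosen for their likeness over the same samples, so their own differences, 0.98 to 1.20, are a description.

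**Figure D5:**
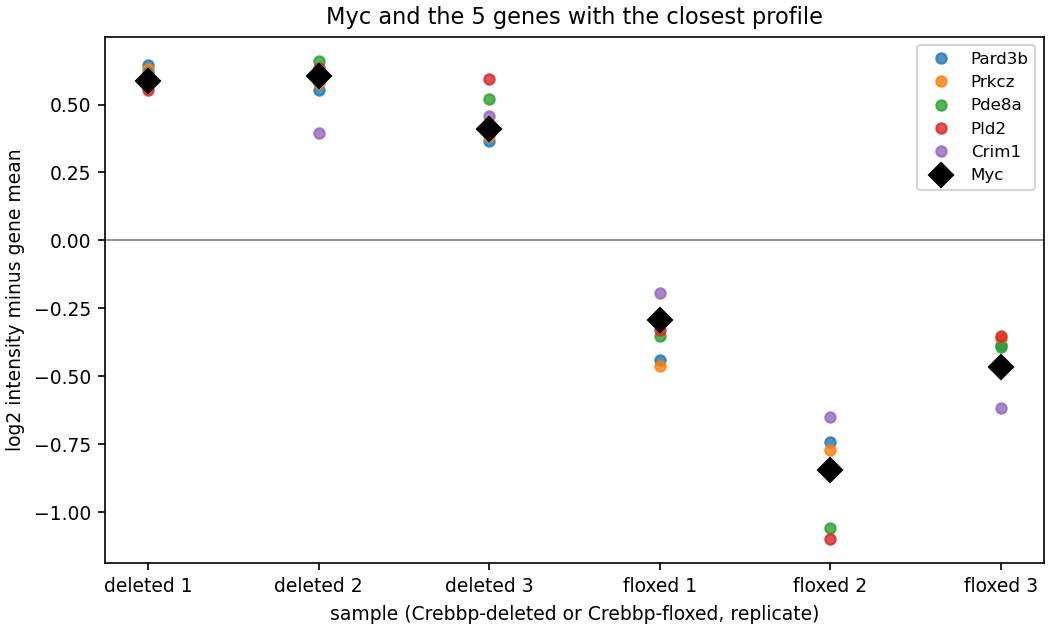
Log2 intensity minus the gene's mean over the 6 samples (y axis) for Myc (black diamonds) and the 5 genes with the closest profile (coloured points) in each sample (x axis). All 6 genes lie above 0 in the 3 Crebbp-deleted samples and below 0 in the 3 Crebbp-floxed samples, with Crebbp-floxed sample 2 lowest in each of them.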

How the data were processed

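RNA of splenic B cells from 6 mice was measured on Affymetrix mouse arrays. The authors deposited intensities, with 1 value for each probe set on each array; per the submitters' processing notes RMA was used (version not given in the sources used here). Values of 2.96 to 17022 were read as linear intensities, were log2-transformed and were not normalized again. Arrays have no read depth, and no detection call was used.

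Of 45101 probe sets 34958 had 1 symbol in the platform annotation, 932 had several and 9211 none; those with several or none were not named, and 64 control probe sets were left out. Of the single-symbol probe sets 34754 had their Entrez ID in RefSeq (GRCm38.p6), and 0 symbols changed. A gene was represented by its probe set of highest mean.

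The test was limma's moderated linear model (version 3.58.1, R 4.3.3; two-sided, no covariates, Benjamini-Hochberg over all genes, threshold 0.05), checked on simulated data. P-values measure the spread between 3 mice per group. Named genes are the members, Crebbp, the 2 or 3 genes with the smallest p of a list (the rule allowed up to 4), and the 5 genes most like Myc. For markers only the leading genes are named. Alternatives covered normalization, a filter on dim genes, the choice of probe set, limma's options, a pseudocount of 16, the replicate number as a block, sex, and leaving out each sample. The members and lists were chosen with earlier results of these data known. Plots were made in Python 3.11.15 (matplotlib 3.10.9).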

Additional observations from a re-analysis of the deposited data

How the results depend on the processing

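Over 17 alternatives Myc, Mycn, Mycl, Mxd1, Mxi1, Mnt and Mlx kept the sign of their difference. In Myc, Mycn, Mxi1 and Mnt, whose groups do not overlap, the sign was fixed in advance where samples were left out or split by sex. Of the 10 members, where 1 passed as reported, limma called 2 with the mean of a gene's probe sets and with trend and robust options, and 0 with log2 of intensity plus 16 (Myc adjusted p = 0.054), with the replicate block (0.053), with sex as a term, within males and within females. Without each sample in turn it called 0 to 1. With 0 called, 4 members had an unadjusted p under 0.05 in each of these fits except within males, where 3 had. Of the 24 probe sets 1 passed as reported and 0 with log2 of intensity plus 16, with the replicate block, with sex as a term, within either sex and without any 1 sample, with 5 to 10 at an unadjusted p under 0.05. Of all genes 142 passed as reported, 222 with trend and robust options, 37 with sex as a term, 0 within males and 0 within females (1798 and 1237 at an unadjusted p under 0.05), and 0 to 226 without each sample in turn. The count was 16, 45 and 62 without Crebbp-deleted samples 1, 2 and 3, and 0 and 226 without Crebbp-floxed samples 1 and 3 (1990 and 2586 at an unadjusted p under 0.05). The cause of these changes was not tested, beyond the fewer samples in a fit.

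Deviations from the group means correlated at 0.033, 0.104 and 0.006 between samples of the same number. For Crebbp-deleted samples 1 and 2 this was the highest correlation with any Crebbp-floxed sample. Crebbp-deleted sample 3 correlated better with Crebbp-floxed sample 1, at 0.079. Correlations this low do not settle whether the replicate numbers pair the samples. With the replicate block 126 genes passed, and Prdm1 (adjusted p = 0.026) and C1qb (adjusted p = 0.046) were among them.

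Genes that did not pass changed sign as follows. Mxd3 was at -0.00067 with each array centred on its median, -0.050 with the mean of its probe sets, -0.17 with its most variable probe set, and -0.086 to 0.13 without each sample in turn (below 0 without Crebbp-deleted sample 2 or Crebbp-floxed sample 1 or 2). Max was at 0.0069 within males and Mxd4 at -0.018 within females. Mga was at -0.068 with its most variable probe set and -0.035 within males. Mlxip ran from -0.52 to 0.081 without each sample in turn, above 0 without Crebbp-deleted sample 3, and was at 0.66 within females. Smarcb1 was at 0.20 with the mean of its probe sets and 0.88 with the most variable one. Txnip ran from -0.077 to 0.47 without each sample in turn, below 0 without Crebbp-deleted sample 2, and was at -0.18 within males. Arrdc4 ran from -0.14 to 0.26 without each sample in turn, below 0 without Crebbp-deleted sample 1, and was at -0.18 within females. With the mean of its probe sets Arrdc4 was at 0.43, and with the most variable one at 0.75. The cause was not tested. Dim probe sets limit what can be said of Mycn and Mycl.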
